A study of Mus musculus with 36 samples.

Results

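Of the 2440 Ago2 peaks that the authors placed in exons outside the untranslated regions, 888 (36.4%, 95% Wilson interval 34.5 to 38.3%) carried no 8mer and no 7m8 seed match of any miRNA family in the authors' annotation. They are called weak-seed exonic peaks here, and the other 1552 exonic peaks are called strong-site exonic peaks. The choice among the called peaks used only the authors' region and seed columns, with no measured value. The peaks themselves had been called by the authors on these WT and G12D tumours. Among the weak-seed exonic peaks, 319 listed a 7A1 match (165 of them also a 6mer), 307 listed a 6mer only and 262 (29.5%) listed no match of any class. The share of peaks without an 8mer or 7m8 match was 34.0% (32.5 to 35.5%) in the 3761 peaks of 3′ untranslated regions and 34.9% in all 7585 annotated peaks. Peaks of 1 gene are not independent, so these intervals cover counting error only.

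The peaks come from Halo-enhanced Ago2 pulldown, a crosslinking method in which Ago2 fused to a Halo tag is captured on resin with the RNA bound to it, from colonic tumours of C57BL/6 mice. The 6 tumours labelled WT came from mice carrying Halo-Ago2/+, Villin-CreER/+ and Apc(fl/fl), and the 6 labelled G12D carried the same alleles plus K-Ras-G12D/+, so both groups share the Halo-Ago2, Villin-CreER and Apc alleles. Mice 8 to 12 weeks old received a 200 µl enema of 4-hydroxytamoxifen (5 mg/ml) that started tumour growth. All samples were crosslinked with UV (400 mJ per square cm, 3 exposures). Villin is a promoter of the intestinal epithelium, so the Cre was driven there while tumour lawns were taken whole. Replicates 1 to 3 of each genotype carry the batch label 1, and replicates 4 to 6 the label 2. Whether a replicate number stands for 1 mouse is not said in the labels, and the p-values therefore describe the spread among these samples only.

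An Ago protein loaded with a miRNA finds its targets mainly through the seed, the bases near the 5′ end of the miRNA, which pair with the transcript. An 8mer match pairs with bases 2 to 8 of the miRNA and faces an A opposite base 1, a 7m8 match pairs with bases 2 to 8, a 7A1 match pairs with bases 2 to 7 and has the A, and a 6mer pairs with bases 2 to 7 alone. Repression of a transcript is known to weaken in that order and to be stronger from 3′ untranslated regions than from coding sequence, where ribosomes pass. Crosslinked Ago is also found at places with no seed match.

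The miRNA families listed most often in the weaker matches are shown because they are all that the annotation ties to these peaks, except miR-375-3p, whose sequence was not used here. Each line gives a mature miRNA of such a family, 5′ to 3′ from RefSeq, with bases 2 to 8 in capitals.
miR-26a-5p: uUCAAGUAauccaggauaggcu
miR-26b-5p: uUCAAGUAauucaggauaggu
let-7b-5p: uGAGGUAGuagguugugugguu
let-7i-5p: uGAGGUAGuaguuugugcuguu
miR-23a-3p: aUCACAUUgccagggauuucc
miR-27a-3p: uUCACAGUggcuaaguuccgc
miR-103-3p: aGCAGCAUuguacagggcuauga
miR-16-5p: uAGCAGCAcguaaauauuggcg
miR-24-3p: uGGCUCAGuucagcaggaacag
miR-205-5p: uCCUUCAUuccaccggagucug
miR-29a-3p: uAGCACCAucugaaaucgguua
miR-141-5p: cAUCUUCCagugcaguguugga
miR-200c-3p: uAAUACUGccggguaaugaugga
miR-183-5p: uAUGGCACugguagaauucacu
miR-484: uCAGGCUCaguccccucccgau

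Within a line pair such as miR-26a-5p and miR-26b-5p the capitals are the same, so the annotation cannot tell such members apart. Bases 2 to 7 of miR-103-3p are also bases 3 to 8 of miR-16-5p. A 6mer of the first can therefore lie inside an 8mer or 7m8 match of the second, which weak-seed exonic peaks do not list.

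The 7A1 matches of weak-seed exonic peaks were led by miR-26-5p, which was listed in 36 of the 319 peaks with a 7A1. Over all exonic peaks that family had 48 7A1 entries and only 23 peaks with an 8mer or 7m8. The let-7-5p/miR-98-5p family came next with 21 weak-seed exonic peaks, but it had an 8mer or 7m8 in 276 exonic peaks, the reverse balance. The miR-23-3p family had 19 such 7A1 peaks, miR-27-3p, miR-103-3p/107-3p and the miR-15-5p/16-5p family had 17 each, and miR-24-3p had 15.

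The 6mer matches were led by other families. A 6mer of miR-141-5p/6769b-3p was listed in 32 weak-seed exonic peaks against 22 exonic peaks with its 8mer or 7m8, and one of miR-205-5p in 25 against 20. The miR-29-3p, miR-200-3p/429-3p and miR-375-3p families had 19 each. For miR-375-3p the 8mer or 7m8 count over all exonic peaks was 3, the lowest of the families named here, beside 49 6mer entries.

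The most abundant miRNAs were listed in a minority of these peaks. The 10 families of highest signal in the miRNA libraries, led by miR-200-3p/429-3p (9.34% of the signal) and miR-30-5p/384-5p (8.85%), accounted for a 7A1 or 6mer in 194 weak-seed exonic peaks (21.8%). The same 10 families had a 7A1 or 6mer in 392 strong-site exonic peaks (25.3%), a similar share, and an 8mer or 7m8 in 700 of them (45.1%). No test of these shares was made. The miR-30-5p/384-5p family, the second by signal, had a 7A1 in only 6 weak-seed exonic peaks and a 6mer in 7.

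**Figure D1:**
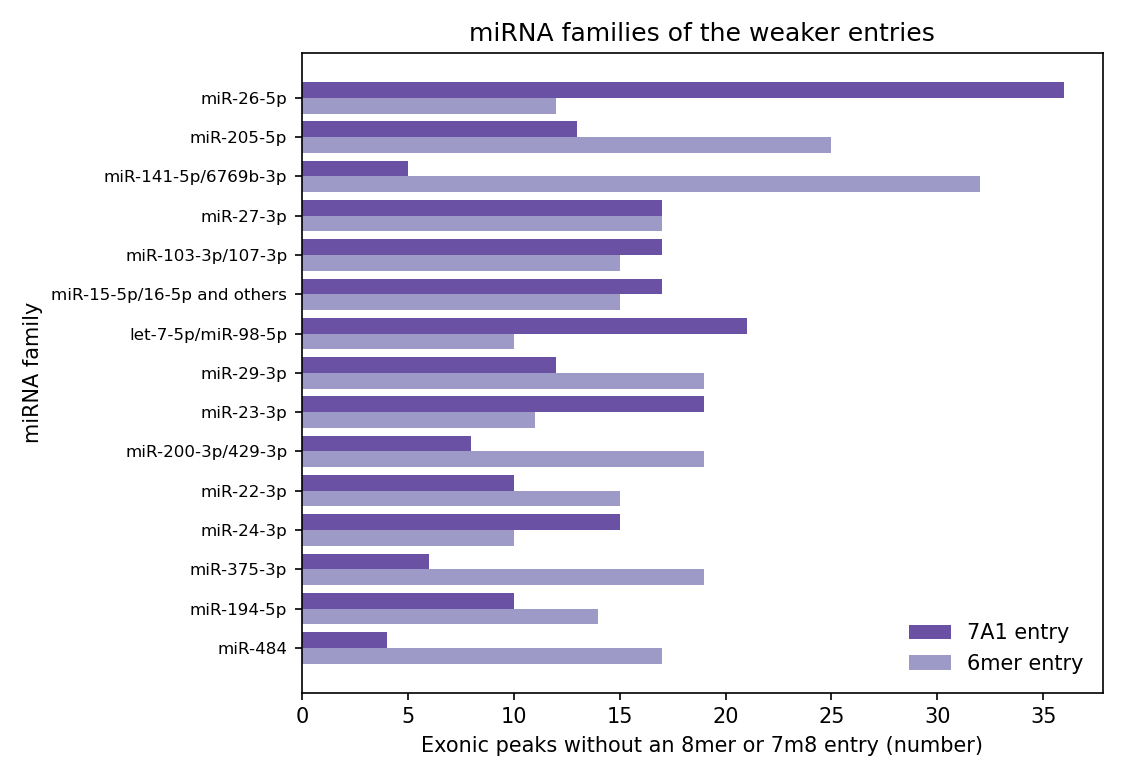
Number of weak-seed exonic peaks (x axis) that list a 7A1 match (dark bars) or a 6mer match (pale bars) of each miRNA family (y axis), for the 15 families with the most entries; a peak can list several families. The longest bars are the 7A1 matches of miR-26-5p (36 peaks) and the 6mer matches of miR-141-5p/6769b-3p (32 peaks).

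Peak values are the authors' size-factor normalised read counts, and they mix the level of the RNA with Ago2 binding, since no input values were used here. Column names give a model and a number, with no library type, and the 12 columns are read here as mRNA libraries. They held 30607 to 974013 reads in all peaks and 4850 to 115012 in weak-seed exonic peaks. WT replicates 5 and 6 stand apart in depth: they had no read in 55.4% and 30.6% of the weak-seed exonic peaks with a mean of at least 5, against at most 4.93% in the other 10 libraries. Main results below are therefore also given without these 2 libraries.

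In width and level the 2 kinds of exonic peak were close. The weak-seed exonic peaks had a median width of 54 bases (21 to 125) against 56, and a median mean level of 20.1 normalised counts per peak (quartiles 12.9 and 42.6) against 21.1. A mean of at least 5 was reached by 791 of the 888 (89.1%) and by 1500 of the 1552 strong-site exonic peaks (96.6%). All 47 weak-seed exonic peaks on the mitochondrial chromosome had a deposited value of 0 in every library, as did the 17 strong-site ones there. Each of them overlapped a peak of the WT or the G12D list, so these zeros are not shown to be an absence of reads. The annotation also placed 388 of the 888 (43.7%) in an intron of another transcript, against 36.5% of strong-site exonic peaks.

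Long noncoding RNAs held 59 of the weak-seed exonic peaks (6.64%) and 34 of the strong-site ones (2.19%), and among peaks with no match at all the share was 10.3%. Protein-coding genes held 85.1% and 94.6%. Malat1 and Neat1, the nuclear long noncoding RNAs of speckles and paraspeckles, alone carried 55 weak-seed and 21 strong-site exonic peaks. These counts describe the annotation and were not tested.

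The peaks lay in 676 genes, 578 of which had exactly 1. Only 32 genes had 3 or more, among them mitochondrial genes such as mt-Co1 (8) whose deposited values were all 0. The nuclear genes with most were Malat1 (35), Neat1 (20), Ahnak, a very large scaffold protein of the cell periphery (10), Dmbt1, a secreted glycoprotein of mucosal surfaces (5), and Eif4g2, a translation initiation factor (5, of which 4 had a mean of at least 5). A strong-site peak somewhere in the same gene was present for 366 of the 676 genes, which held 548 of the 888 peaks, and a strong-site peak in an exon for 229.

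The authors' peak score, whose unit is not stated and which is used here only within each list, also ordered the classes. In the list called on G12D tumours its median was 5.10 for strong-site exonic peaks, 4.43 for those with a 7A1, 4.22 for those with a 6mer only and 3.78 for those with no match. In the list called on WT tumours the medians were 4.77, 4.27, 3.88 and 3.05. The order of the 4 classes was the same in both lists. Peaks found only in the G12D list made up 66.9% of weak-seed and 67.1% of strong-site exonic peaks, and 65.3% of those with no match. Peaks found only in the WT list made up 5.63% of weak-seed and 1.74% of strong-site exonic peaks, and 9.16% of those with no match.

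The first comparison asked whether weak-seed exonic peaks were lower than strong-site ones within each library. On the log2(value + 1) scale, the median over the 791 peaks minus the median over the 1500 ranged from -0.22 (G12D replicate 1) to 0.18 (G12D replicate 3). It was below 0 in 7 libraries, 0 in 4 and above 0 in 1, with a mean of -0.08 (SD 0.12, n = 12). This did not pass an exact two-sided sign-flip permutation test (p = 0.0625, Benjamini-Hochberg adjusted over 3 tests 0.127, where the smallest possible p is 0.000488).

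By class, peaks with a 7A1 differed from strong-site exonic peaks by -0.01 (SD 0.07, n = 12 libraries) and those with a 6mer only by -0.01 (SD 0.11), each on both sides of 0 across libraries. Peaks with no match were lower by 0.29 on average, with values from -0.69 to 0. They lay below strong-site exonic peaks in 9 libraries and level with them in 3 (value -0.29, SD 0.25, exact sign-flip permutation p = 0.00391, unadjusted). In WT replicates 5 and 6 all classes had the same median, which in replicate 5 was 0 reads.

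**Figure D2:**
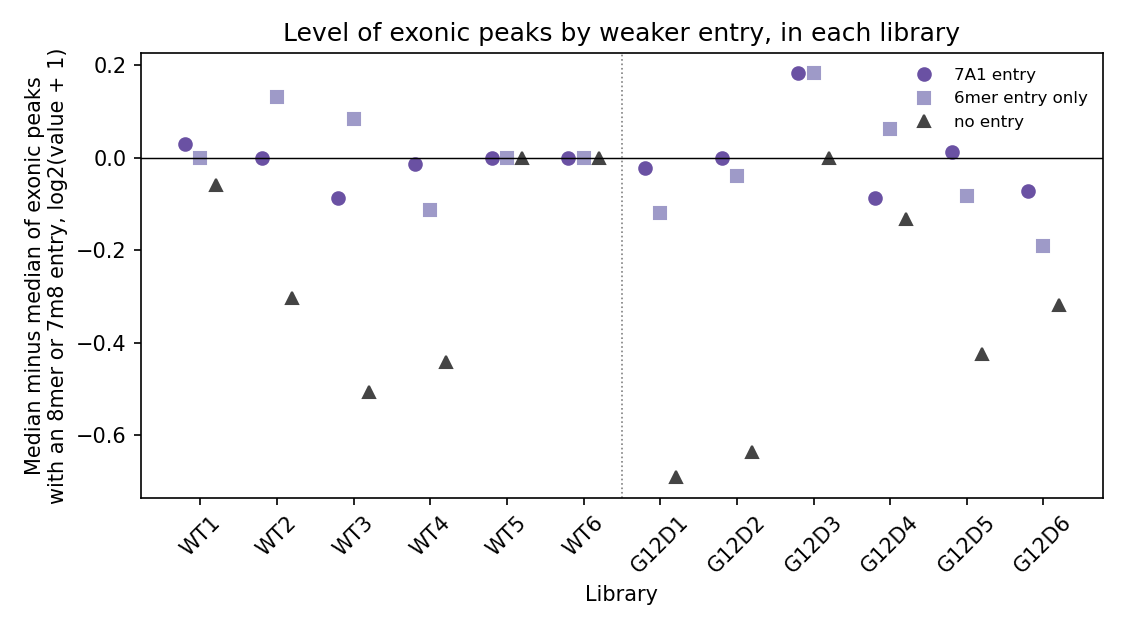
Median log2(value + 1) of weak-seed exonic peaks minus the median of strong-site exonic peaks (y axis) in each of the 12 libraries (x axis), for peaks with a 7A1 match (circles), a 6mer only (squares) and no match (triangles); the dotted line separates WT from G12D. The triangles lie at 0 or below, down to -0.69, while circles and squares stay between -0.19 and 0.18.

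A comparison inside genes, added after the data were seen, keeps the level of the transcript in common. For the 202 genes that held both kinds of exonic peak with a mean of at least 5, the weak-seed peaks were averaged, the strong-site peaks were averaged, and the median difference over genes was taken in each library. It was -0.26 (SD 0.14, n = 12), with values from -0.39 to 0, and below 0 in 11 libraries (exact sign-flip permutation p = 0.000977, unadjusted). For the 59 genes whose weak-seed peak had no match the difference was -0.42 (SD 0.21), again below 0 in 11 libraries (exact permutation p = 0.000977, unadjusted). The library at 0 was WT replicate 5.

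Peaks of 3′ untranslated regions gave a difference of the same sign. The 1265 without an 8mer or 7m8 lay -0.30 (SD 0.25, n = 12) from the 2472 with one, and those with no match lay -0.44 from them. Whether exons and 3′ untranslated regions differ in this was not tested.

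The second comparison asked whether the balance of the 2 kinds of exonic peak differed between genotypes. The per-library difference averaged -0.06 (SD 0.09) in the 6 WT libraries and -0.09 (SD 0.15) in the 6 G12D libraries. The genotype difference of -0.03 was within the spread (exact two-sided permutation p = 0.665, adjusted 0.665), and it was -0.01 in batch 1 and -0.06 in batch 2. Inside genes with both kinds of peak the value was 0.05 (exact permutation p = 0.606), so the sign itself turned.

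Weak-seed exonic peaks took a share of the exonic signal that ran from 32.1% to 64.7% in WT libraries (mean 41.1%, SD 12.1) and from 31.3% to 39.5% in G12D libraries (mean 33.1%, SD 3.18). The ranges overlapped, 4 of the 6 G12D libraries lay below every WT library, and the highest value was that of WT replicate 5, the shallowest library. The difference of -8.07 percentage points did not pass the exact permutation test (p = 0.0844, adjusted 0.127), and it was -2.56 points in batch 1 and -13.6 points in batch 2. Whether the batches differ in it gave an exact permutation p of 0.435. Without WT replicates 5 and 6 it was -2.77 points (exact permutation p = 0.31), and without WT replicate 5 alone -3.36 points. It was -3.91 points without the 10 exonic peaks of highest mean, 5 of which are weak-seed peaks, and -3.33 points without the noncoding RNA lists.

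**Figure D3:**
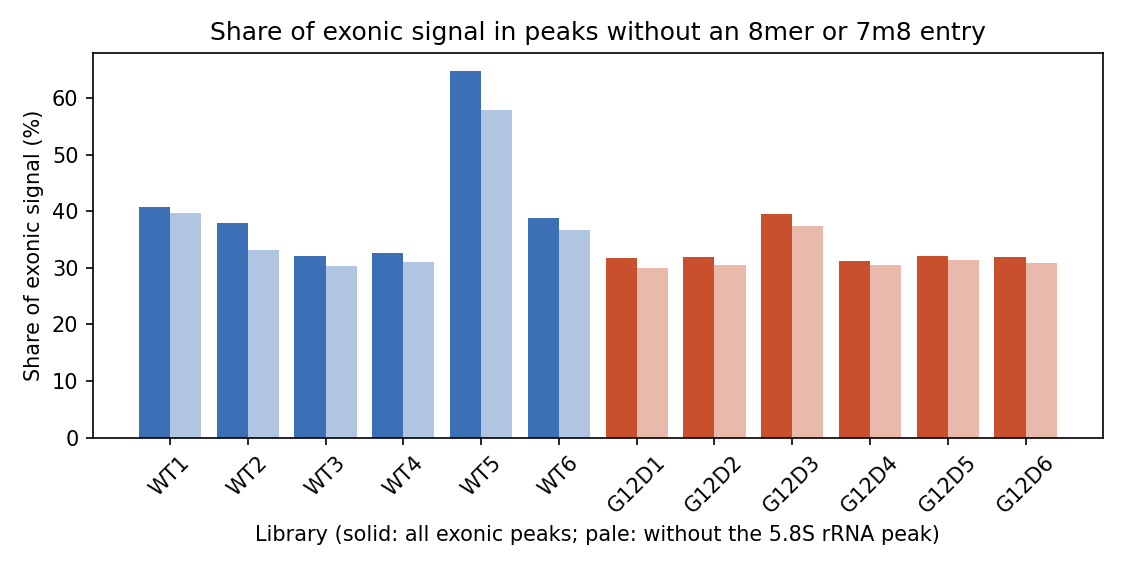
Share of exonic normalised counts in weak-seed exonic peaks (y axis, percent) in each library (x axis), WT in blue and G12D in red; pale bars leave out the 5.8S ribosomal RNA peak. WT replicate 5 stands at 64.7%, or 57.9% without that peak, and the other 11 libraries lie between 31.3% and 40.8%.

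The third comparison tested each peak between genotypes. With limma-trend and batch as a covariate, no peak passed a Benjamini-Hochberg adjusted p under 0.05, neither among the 791 weak-seed exonic peaks nor among all 7527 tested (0.0% called). At an unadjusted p under 0.05, 287 weak-seed exonic peaks (36.3%) were higher in G12D, beside 35.9% of all peaks tested, and 4 were lower, beside 0.173%. The peaks as a whole lay higher in G12D on this scale: the median log2 difference was 1.33 over all peaks, 1.28 over weak-seed and 1.33 over strong-site exonic peaks. Without WT replicates 5 and 6 it was 0.38 over all peaks and 0.38 over weak-seed exonic peaks, so values below are also given relative to the median of all peaks. Most exonic peaks were found only in the G12D list, and the part of that choice of peaks in this direction was not tested.

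The count tools run on the recovered reads gave different numbers. The quasi-likelihood test of edgeR called 0 weak-seed exonic peaks, beside 10 of all peaks tested. DESeq2 called 78 higher in G12D (9.31% of the 838 with an adjusted p, beside 9.92% of all peaks) and 7 lower (0.835%, beside 0.355%), and the authors' deposited table held the same 85 calls among these peaks. For strong-site exonic peaks DESeq2 called 164 higher and 3 lower of 1525. All 6 G12D libraries lay above all 6 WT libraries in 15 weak-seed exonic peaks (1.90%, beside 1.7% of all peaks), and below them in none (beside 0.0%).

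For the class with no match the median log2 difference was 1.18, against 1.27 for peaks with a 7A1 and 1.33 for those with a 6mer only, and 25 of 227 (11.0%) had a negative value, against 48 of the 1500 strong-site exonic peaks (3.2%). Of the 4 weak-seed exonic peaks lower at an unadjusted p under 0.05, 3 had no match. These are counts over peaks, which are not replicates. Malat1 held 14 and Neat1 13 of the 227 peaks with no match. In the list of long noncoding RNAs and unnamed gene models, 14 of 64 weak-seed exonic peaks had a negative value, beside 53 of all 791. The part of these genes in the counts for peaks with no match was not tested.

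Zfp36l2, a zinc-finger protein that binds AU-rich elements and promotes decay of the bound RNA, was the one gene among the 10 peaks of highest mean whose groups did not overlap. Its peak at chr17:84187114-84187162 (GRCm38, minus strand) listed a 6mer of miR-375-3p. WT libraries ran from 22.6 through a median of 274 to 745 normalised counts, and G12D libraries from 775 through 1164 to 1612. All 6 G12D libraries were above all 6 WT libraries. The log2 difference was 2.64 (SE 0.68, limma adjusted p = 0.108), or 1.31 above the median of all peaks and 1.00 above it without WT replicates 5 and 6. DESeq2 called this peak higher (adjusted p = 0.0270).

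Dusp6, Errfi1 and Spry2, feedback inhibitors of the growth factor pathway that K-Ras serves, had weak-seed exonic peaks, 2 of them in Errfi1. Dusp6 is a phosphatase that switches off ERK. Its peak at chr10:99264682-99264738 (plus strand) listed no match. WT libraries ran from 0 through 18.7 to 59.7 normalised counts and G12D libraries from 34.7 through 71.1 to 120. The upper 3 G12D libraries were above every WT library. DESeq2 gave an adjusted p of 0.0478 and limma 0.108 (log2 difference 2.45, SE 0.81), which is 1.12 above the median of all peaks. Without WT replicates 5 and 6 the difference was 0.93, or 0.55 above that median.

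Errfi1, a feedback inhibitor of the EGF receptor, had its larger peak at chr4:150867388-150867441 (plus strand) with a 6mer of miR-103-3p/107-3p. Its other peak had a mean of 16.1 normalised counts. The larger peak was named among the largest negative differences relative to all peaks. That peak ran from 13.6 through 27.6 to 41.0 in WT and from 38.02 through 60.1 to 105 in G12D, so that 5 G12D libraries were above every WT library. DESeq2 called it higher (adjusted p = 0.0309), and the limma difference of 1.27 lay -0.06 from the median of all peaks and 0.63 above it without WT replicates 5 and 6. Spry2, an inhibitor of receptor tyrosine kinase signalling, had a peak with no match, with WT libraries at 8.67 ± 6.66 and G12D libraries at 16.7 ± 6.44 normalised counts (mean ± SD, n = 6). It passed no test (log2 difference 1.28, -0.05 from the median of all peaks, DESeq2 adjusted p = 0.260), and it was named after its values were seen.

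The list of MAPK output and Ras pathway genes held 5 weak-seed exonic peaks in 5 genes, of 26 genes of the list with any peak. At an unadjusted p under 0.05, 2 of the 5 (40%, beside 35.9% of all peaks) were higher (Dusp6 and the receptor Erbb2) and none lower. The median of the list, 1.28, was -0.05 from that of all peaks. The ligand Hbegf gave -0.34 (SE 0.72) and the kinase Mapk3 1.09, neither past any threshold.

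Wif1 and Prox1, both on the list of Wnt target genes, went the other way. Wif1 is a secreted inhibitor that binds Wnt proteins. Its peak at chr10:121090136-121090194 (plus strand) listed no match of any family. WT libraries ran from 49.8 through a median of 115 to 1682 normalised counts, and G12D libraries from 11.6 through 48.7 to 70.1. The highest WT libraries were replicates 4 and 6, both of batch 2, and 5 of the 6 G12D libraries were below every WT library. The log2 difference was -2.49 (SE 0.74, limma adjusted p = 0.108), and it was -2.04 in batch 1 and -2.95 in batch 2. DESeq2 called the peak lower (adjusted p = 0.00286).

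Prox1, a homeobox transcription factor, had a peak at chr1:190161412-190161467 (minus strand) with 6mers of miR-218-5p and miR-141-5p/6769b-3p. WT libraries ran from 13.6 through 36.8 to 439 and G12D libraries from 4.63 through 28.2 to 35.9. The groups overlapped, and WT replicates 4 and 6 stood far above the rest, the same libraries that were high for Wif1. DESeq2 called it lower (adjusted p = 0.0307), and limma gave -1.65 (SE 0.76, adjusted p = 0.130).

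Of the 29 Wnt target genes, 20 had a peak anywhere and 7 had 8 weak-seed exonic peaks. At an unadjusted p under 0.05, 2 were lower (Wif1 and Prox1), beside 0.173% of all peaks, and 1 was higher (12.5%, beside 35.9%). The higher one was a peak of the cyclin gene Ccnd1 with a log2 difference of 2.32 (SE 0.78) that was 1.08 without WT replicates 5 and 6. Relative to the median of all peaks these were 1.00 and 0.70. The list's median was -0.02, which is -1.35 from the median of all peaks and -0.65 from it without WT replicates 5 and 6. Axin2, the feedback scaffold of the pathway, gave 0.04, the transcription factor Lef1 -0.08, and Lgr4, a receptor for R-spondins, 1.12. A peak shared by Tcf7l2 and Ppnr gave -0.30, and the other Ccnd1 peak 1.04. The list was chosen with earlier results of these data known.

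**Figure D4:**
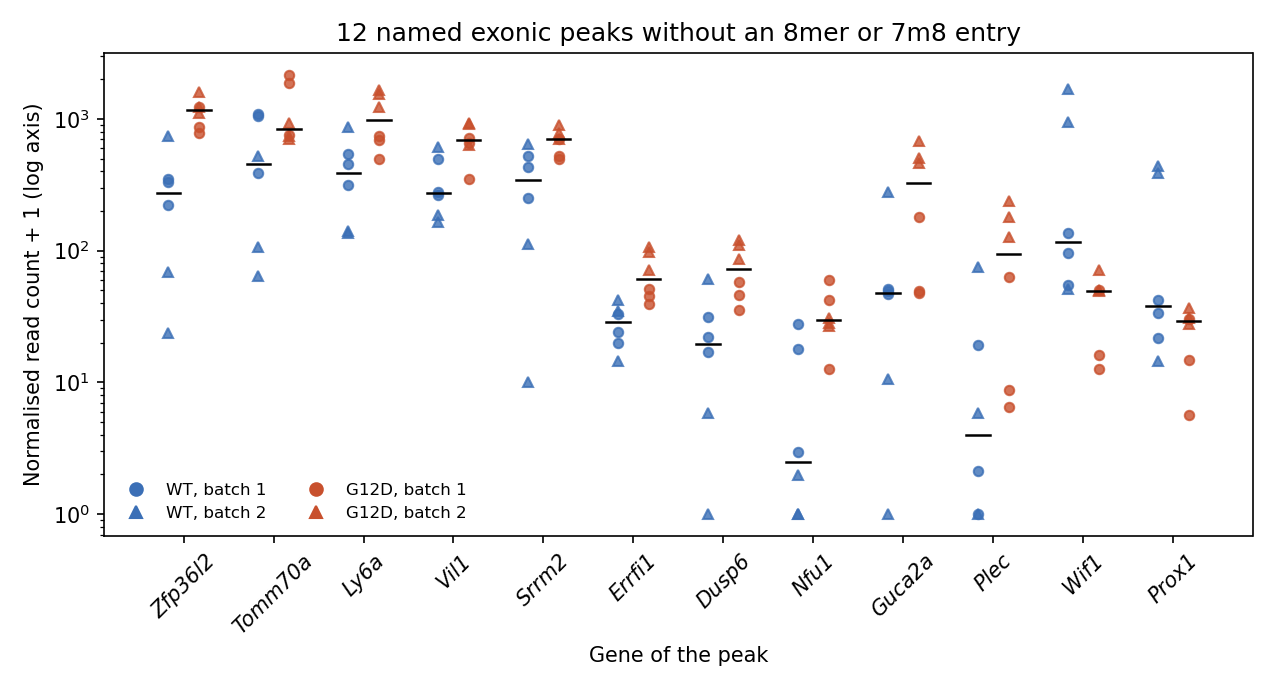
Normalised read count + 1 (y axis, log axis) of 12 weak-seed exonic peaks (x axis, by gene) in WT (blue) and G12D (red) libraries of batch 1 (circles) and batch 2 (triangles), with black bars at the medians. The G12D points of Zfp36l2 all lie above the WT points, and the 2 highest WT points of Wif1 and of Prox1 are both of batch 2.

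Vil1, villin, which bundles actin in microvilli, had a peak at chr1:74428116-74428173 (plus strand) with a 7A1 of let-7-5p/miR-98-5p. It ran from 163 through 271 to 615 in WT and from 347 through 688 to 922 in G12D, and 5 G12D libraries were above every WT library. The log2 difference of 1.17 (SE 0.54, limma adjusted p = 0.130) was -0.16 from the median of all peaks. Without WT replicates 5 and 6 the difference was 0.62, or 0.24 above that median.

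The list of keratin, adhesion and cytoskeleton genes had 35 weak-seed exonic peaks in 17 genes. At an unadjusted p under 0.05, 17 of the 32 tested (53.1%, beside 35.9% of all peaks) were higher and none lower, and the median of 1.42 was 0.09 above that of all peaks. Krt8, an epithelial keratin, ran from 33.7 through 207 to 225 in WT and from 229 through 382 to 628 in G12D, with no overlap. DESeq2 called it higher (adjusted p = 0.0406), and it was chosen after its values were seen. Its log2 difference of 1.58 was 0.86 without WT replicates 5 and 6. Relative to the median of all peaks these were 0.25 and 0.48, and the relative value with TMM scaling was -0.02. Within the list, Cdh17, an intestinal cadherin, had a peak at 161 ± 217 in WT and 115 ± 108 in G12D. In bulk tissue, a different number of cells of a type and a different amount of RNA per cell cannot be told apart.

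Within the same list, Plec, the linker protein plectin, had the largest positive log2 difference of the named peaks. Its peak with a 6mer of miR-19-3p at chr15:76188584-76188630 (minus strand) ran from 0 through 2.97 to 74.6 in WT and from 5.53 through 93.7 to 238 in G12D. The log2 difference was 3.35 (SE 0.94, limma adjusted p = 0.108), and the 3 lowest G12D libraries lay inside the WT range. The difference was 1.85 without WT replicates 5 and 6, below the 2.27 of the Nfu1 peak under the same setting. Relative to the median of all peaks the 2 Plec differences were 2.02 and 1.47. Actb, cytoplasmic actin, had 2 weak-seed exonic peaks. The larger one, with 6mers of miR-194-5p and miR-141-5p/6769b-3p, ran from 624 to 1383 in WT and from 1307 to 2187 in G12D, a log2 difference of 0.74 that turned to -0.28 with TMM scaling, under which the median of all peaks was 0.60.

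Mucin and goblet cell genes lay lower than most. Their 12 peaks in 7 genes had a median of 0.80, which is -0.53 from that of all peaks and -0.46 from it without WT replicates 5 and 6. At an unadjusted p under 0.05, 2 (16.7%, beside 35.9% of all peaks) were higher and none lower. Muc2, the main secreted mucin of the colon, had 3 weak-seed exonic peaks that together ran from 4.53 through 174 to 325 normalised counts in WT and from 102 through 133 to 339 in G12D. Its 5 strong-site exonic peaks together ran from 195 through 2396 to 7355 and from 1049 through 1730 to 6363, so most of the exonic Muc2 signal was at strong sites. Guca2a, guanylin, the peptide that controls intestinal fluid secretion, ran from 0 through 46.9 to 280 in WT and from 46.3 through 323 to 676 in G12D, with the highest library of each genotype in batch 2. Its log2 difference of 2.92 (SE 0.99) was 0.72 without WT replicates 5 and 6. Relative to the median of all peaks these were 1.59 and 0.35.

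Malat1 and Neat1 were the genes with most of these peaks. The 35 weak-seed exonic peaks of Malat1 together held 458 through a median of 5535 to 8394 normalised counts in WT and 3209 through 4859 to 7171 in G12D. The WT libraries at the bottom were replicates 5 (458) and 6 (805), and the other 4 lay between 3762 and 8394. The median log2 difference of the 35 peaks was 0.52, or -0.81 from the median of all peaks. None had an unadjusted p under 0.05, beside 35.9% higher and 0.173% lower of all peaks. Relative to all peaks, batch 1 gave -1.05, batch 2 gave -0.76, and leaving out WT replicates 5 and 6 gave -1.19. The 10 strong-site exonic peaks of Malat1 gave -0.64 relative to all peaks. Coding genes could lie as low: the median of the 4 tested weak-seed exonic peaks of Eif4g2 was -0.83 from that of all peaks and the median of the 3 of Muc2 was -0.72 from it.

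The 20 weak-seed exonic peaks of Neat1 together ran from 77.1 through 443 to 598 in WT and from 239 through 813 to 1079 in G12D. Their median was -0.51 from that of all peaks, -1.03 in batch 1 and 0.06 in batch 2, so the batches did not share a direction. In the weak-seed sums, G12D replicates 1 and 2 were the lowest G12D libraries for both genes. In the strong-site sums the lowest was G12D replicate 4, with 574 for Malat1 and 297 for Neat1. Neat1 had 3 of 20 peaks higher and 1 lower at an unadjusted p under 0.05, beside 35.9% and 0.173% of all peaks. The list of long noncoding RNAs and unnamed gene models held 64 weak-seed exonic peaks in 10 genes, with a median of 0.60. Malat1 and Neat1 held 55 of these peaks, so the list mostly counts the same peaks again. Of the 64, 6 were higher (9.38%) and 2 lower, beside the same shares of all peaks.

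**Figure D5:**
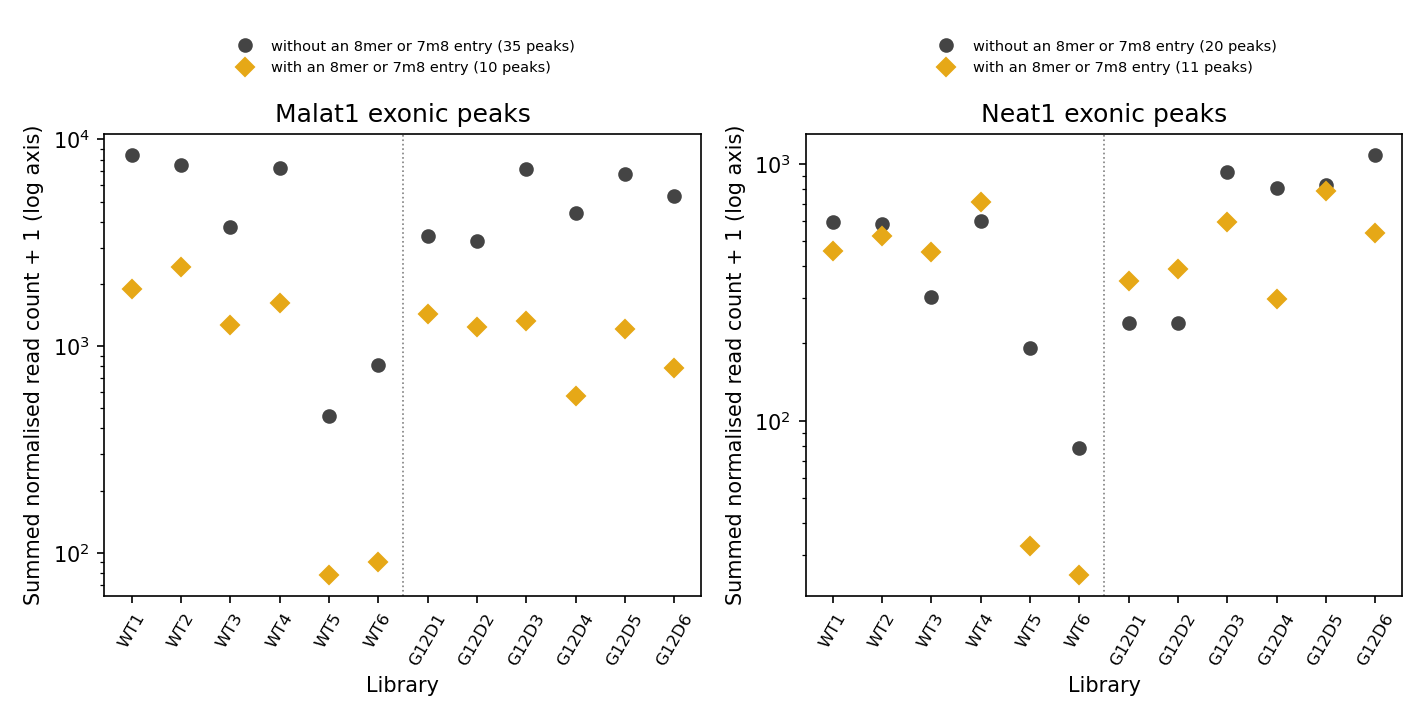
Summed normalised read count + 1 (y axes, log axes) of the exonic peaks of Malat1 (left) and Neat1 (right) in each library (x axes), for weak-seed peaks (circles) and strong-site peaks (diamonds); the dotted line separates WT from G12D. The Malat1 circles, sums over 35 peaks, lie above the diamonds, sums over 10 peaks, in every library. Per peak, the median of the Malat1 means was 103 for weak-seed and 111 for strong-site peaks. WT replicates 5 and 6 are low for both kinds.

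Ahnak, with 10 weak-seed and 8 strong-site exonic peaks, was the coding gene with most of these peaks. Its weak-seed peaks together ran from 79.5 through 223 to 341 in WT and from 294 through 338 to 399 in G12D. Of the 10, 5 were higher and none lower at an unadjusted p under 0.05, beside 35.9% and 0.173% of all peaks. The median of the 10 peaks, 1.46, was 0.13 from that of all peaks. The strong-site peaks of the gene had a median of 1.31. For Dmbt1, the 5 peaks together ran from 14.5 through 233 to 449 in WT and from 141 through 264 to 389 in G12D, the groups overlapped, and their median of 0.59 was -0.73 from that of all peaks. The 4 tested peaks of Eif4g2 had a median of 0.50 with none past an unadjusted p of 0.05, beside the same shares of all peaks.

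In other lists, the 24 tested peaks in ribosomal protein and translation genes had a median of 1.19 with 6 higher (25%), the 15 in chromatin regulators 1.56 with 6 higher (40%), and the 5 in histone genes 0.65 with none higher, at an unadjusted p under 0.05 and beside 35.9% of all peaks. In the miRNA machinery, Tnrc6a, a scaffold that links Ago to the deadenylases, ran from 4.53 through 38.3 to 79.4 in WT and from 46.3 through 93.6 to 125 in G12D. Its 7A1 was of miR-191-5p, and its log2 difference of 1.40 was 0.07 from the median of all peaks and 0.41 above it without WT replicates 5 and 6. Among the other abundant peaks, Tomm70a, a mitochondrial import receptor with a 7A1 of miR-23-3p, gave 1.64 (SE 0.59), and Ly6a, a cell surface antigen, 1.54 (SE 0.58). These were 0.81 and 0.63 without WT replicates 5 and 6. Relative to the median of all peaks, Tomm70a gave 0.31, or 0.43 without those libraries and 0.03 with TMM scaling. Ly6a gave 0.21, or 0.25 and -0.07 under the same settings.

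Nfu1, an iron-sulphur cluster scaffold of mitochondria, was among the largest differences. Its peak at chr6:87012955-87013008 (plus strand) listed 6mers of miR-17-5p/20-5p/93-5p/106-5p and miR-140-5p, and was found only in the G12D list. WT libraries ran from 0 through 1.47 to 26.8 normalised counts and G12D libraries from 11.6 through 28.6 to 58.9, with 4 G12D libraries above every WT library. DESeq2 called it higher (adjusted p = 0.00821), and the limma difference of 2.99 (SE 0.76, adjusted p = 0.108) was 1.66 above the median of all peaks and 1.89 above it without WT replicates 5 and 6. Srrm2, a large spliceosome-associated protein and the top coding peak with no match, ran from 9.06 through 340.5 to 640.4 in WT and from 496 through 698 to 891 in G12D. Its difference of 1.84 (SE 0.75) was 0.52 above the median of all peaks but 0.09 above it without WT replicates 5 and 6.

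Markers of other cell types were few. Of 25 leukocyte genes, 2 had any peak in the whole table, H2-Eb1 and Cd14, and both had weak-seed exonic peaks (3 in all). Of these, 1 was higher at an unadjusted p under 0.05 (33.3%, beside 35.9% of all peaks). Of 26 fibroblast and smooth muscle genes, 12 had a peak and 2 had a weak-seed exonic one. The Col1a1 peak ran from 4.53 through 29.6 to 160.0 in WT and from 45.6 through 133 to 212 in G12D (log2 difference 2.09, SE 0.72, limma adjusted p = 0.108). Col6a3, another collagen gene, was at 4.00 ± 2.71 in WT and 14.3 ± 4.96 in G12D (log2 difference 1.80, DESeq2 adjusted p = 0.0299). The median of the 2 was 0.62 above that of all peaks and 0.83 above it without WT replicates 5 and 6. The 17 genes of endothelium and nerve had 1 with a peak of any kind and none with a weak-seed exonic one. The part of these cells in the other results was not tested.

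The 2 weak-seed exonic peaks of highest signal lay in structural RNAs, where reads from repeated copies cannot be assigned with certainty. The 5.8S ribosomal RNA peak (n-R5-8s1, chr18:73533428-73533485, minus strand) ran from 1251 through 2984 to 8408 in WT and from 2155 through 2519 to 3957 in G12D. It made up 16.1% of the exonic signal of WT replicate 5 and at most 7.08% elsewhere. The peak of Rnu12, the U12 spliceosomal RNA, ran from 205 through 750.3 to 6133 in WT and from 199.8 through 1555 to 2562 in G12D, with its highest values in WT replicates 5 and 6. Neither differed between genotypes beyond the spread (limma log2 difference -0.19, SE 0.50, and 0.10, SE 0.61).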

How the data were processed

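RNA bound to Halo-Ago2 was measured in 6 WT and 6 G12D tumours, and groups were taken from the labels. Per the submitters' processing notes, STAR 2.5.2b, DESeq2 and the build GRCm38 were used, in steps that the notes leave unnamed. For the peak caller, the sources used here give no name. The deposited signal of a peak is the authors' read count over a size factor per library. All values (100%) were whole reads within a tolerance of 0.001 reads, so reads were recovered. The authors' deposited table also holds log2 fold changes and adjusted p-values, and the peak score was deposited with no unit. The authors called 1 list per genotype.

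Peaks with a mean of at least 5 were tested with limma-trend 3.58.1 in R 4.3.3, with batch as covariate and values as log2(value + 1), and with Benjamini-Hochberg adjustment over all peaks at 0.05. The pseudocount can move the change of low peaks either way, since zeros of shallow libraries enter as 0 on the log2 scale. For example, limma and DESeq2 gave 3.35 and 2.26 for Plec and 2.92 and 1.70 for Guca2a. They gave 0.10 and 0.30 for Rnu12 and -2.49 and -2.95 for Wif1. The part of the pseudocount in these was not tested. edgeR 4.0.16 and DESeq2 1.42.0 on recovered reads were alternatives. Other tests were exact permutations over libraries, and the limma and permutation scripts were tested on simulated data. The depth limits shallow libraries: 1 read was worth 0.482 to 4.53 normalised counts. Reads may include PCR copies, so intervals cover counting error only.

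Named peaks are the 10 of highest mean, the 5 largest positive and negative differences relative to all peaks with an unadjusted p under 0.05 and a mean of at least 20, the 5 genes with most peaks, the top peak of each list and the 3 of highest mean of each class. The peaks and lists were chosen with earlier results of these data known. Seed entries are the authors' own. Peak sequences were not used here.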

Additional observations from a re-analysis of the deposited data

Results flagged for a closer look

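In groups of 6 libraries, the highest or lowest value was set against the range of the group, and 9 of the 62 groups tested had a value that stood apart. The nominal rate is about 1 in 20, but the groups share libraries, so the 9 are not read as an excess. The share of exonic signal in weak-seed exonic peaks was 64.7% in WT replicate 5 and 39.5% in G12D replicate 3, each far above the rest of its group. These are the shallowest library of each genotype. WT replicate 4 held 5 of the values: 280.0 normalised counts for Guca2a, 160.0 for Col1a1, 129 for Slc40a1 (the iron exporter ferroportin), 74.6 for Plec and 45.9 for the peak shared by Mgst2 and the gene model RP23-346I1.1. G12D replicate 5 held 2, with 292 for the Muc2 peak that has a 7A1 of the miR-15-5p/16-5p family and 305 for Slc40a1. The part of depth or of these single libraries in the results was not tested. No named peak gave a difference between batches in its genotype effect that passed adjustment (limma interaction, smallest adjusted p 0.369).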

How the results depend on the processing

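The count of weak-seed exonic peaks called between genotypes was 0 with limma, no filter, TMM scaling, the replicate block and edgeR. It was 48 (6.07%, beside 6.82% of all peaks) with a pseudocount of 5, 35 (4.42%, beside 3.11%) in batch 2 only and 85 with DESeq2. Leaving out 1 library at a time gave 0 to 352 calls, and the 352 (44.5%, beside 45.2% of all peaks) came without WT replicate 4. The labels do not say whether samples with the same number are paired. The correlations of same-numbered deviations ran from -0.11 to 0.65, which cannot settle it. The replicate block left the genotype balance (-0.03, exact permutation p = 0.75) and the share (-8.07 points, p = 0.188) on the same side of the threshold.

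The level against strong-site exonic peaks passed an unadjusted 0.05 with no filter (-0.14), for peaks with no match (-0.29), without the noncoding lists (-0.13), and, as settings chosen after seeing the data, with means over peaks (-0.13) and within genes (-0.26). It ran from -0.10 (without G12D replicate 3, exact permutation p = 0.0156) to -0.063 on leaving out 1 library, and it was -0.02 at a mean of at least 20 and -0.05 per base of peak width (exact permutation p = 0.115). The genotype balance turned to 0.046 within genes. The share was -3.91 points without the 10 highest exonic peaks and -3.33 without the noncoding lists, and it ran from -9.88 to -3.36 points on leaving out 1 library, past 0.05 without WT replicate 3, WT replicate 4 (-9.79) or G12D replicate 3 (-9.37). The cause was not tested.

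With TMM scaling the log2 difference turned for Rnu12 (-0.92), Actb (-0.28), Cd2ap (-0.61), Hist1h1d (-0.36) and Muc2 (-0.0040). Without WT replicates 5 and 6 it turned for Malat1 (-0.33) and Muc2 (-0.57). In batch 1 it turned for n-R5-8s1 (0.11), Malat1 (-0.57) and Muc2 (-0.42), and in batch 2 for Rnu12 (-0.61). On leaving out 1 library it ran from -0.51 to 0.10 for n-R5-8s1, from -0.42 to 0.43 for Rnu12 and from -0.012 to 0.79 for Cd2ap. Depth limits the low peaks most, and a peak without reads in WT replicates 5 and 6 is not shown to be absent there.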

Other observations

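The 7 weak-seed exonic peaks that DESeq2 called lower in G12D were named after their values were seen. Beside Wif1, Prox1 and the gene model RP23-189B9.3 (overlapping AC130827.2), they lay in Brd3, a reader of acetylated histones, in Neat1, in the ribosomal protein gene Rps3a1 and in a 5S ribosomal RNA copy (n-R5s152). Of these 7, 4 listed no match and 3 a 6mer only. Several rested on 1 or 2 libraries: the Brd3 peak ran from 1.12 through 9.58 to 136 normalised counts in WT and from 0 through 3.21 to 23.1 in G12D, with its highest value in WT replicate 5.

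The 15 weak-seed exonic peaks in which every G12D library was above every WT library included, beside Zfp36l2 and Krt8, Eps8l3, an actin regulator (WT 35.3 ± 23.6 and G12D 124 ± 37.7 normalised counts, mean ± SD, n = 6), the netrin receptor gene Unc5b (16.95 ± 12.9 and 63.5 ± 31.8), and the p120 catenin gene Ctnnd1 (11.4 ± 4.92 and 32.2 ± 11.3). They too were named after their values were seen.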
